A study of Mus musculus with 20 samples.

Results

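The cytidines described here carried C-to-T changes in mouse sections that had received no antibody and no deaminase. A site belonged to the set if its reference base was C on the RNA strand, if the 2 untreated libraries of an embryo table together had 20 or more reads over it, and if 5% or more of those reads were changed. Members were thus chosen by the changed share in untreated reads. Of 134146 sites with a reference C and that depth, 6117 qualified: 2525 of 59440 in the fixed embryo and 3618 of 76532 in the fresh-frozen embryo, with 26 in both. All 4 tables together list 783945 sites of any base. Untreated values are therefore given as description, and no test compares them with anything.

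The libraries come from MAPIT-seq, in which antibodies bring a deaminase fusion to an RNA-binding protein in tissue sections, so that nearby transcripts gain edited bases, C-to-T by APOBEC1 and A-to-G by ADAR2. All animals were wild-type C57BL/6J mice. The antibody libraries carry a label of 0.2% formaldehyde (FA). They received a primary antibody from rabbit, either against G3BP1 or IgG, then a guinea pig antibody to rabbit, then the fusion rAPOBEC1-pAG-hADAR2. For the E10.5 embryo, fixed or fresh-frozen (FF) by label, there were 2 untreated, 2 IgG and 2 anti-G3BP1 libraries per preparation. For brain at E12.5 and at E16.5 there were 2 IgG and 2 anti-G3BP1 libraries per stage. Untreated libraries carry no fixation label, although the titles of those from the fixed embryo call them fixed. The labels do not say whether replicates came from separate animals, so the spread between them may be technical.

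APOBEC1 is a cytidine deaminase that turns C into U in RNA, and its classical natural target is the Apob transcript, where editing creates a stop codon in intestine. A C-to-T difference between a read and the genome can also come from a genomic variant or from a read placed on the wrong copy of a sequence. Processed pseudogenes are genomic copies made from spliced messenger RNAs, and many copies of abundant housekeeping transcripts, such as those of ribosomal proteins, differ from the parent gene at few bases.

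The first set of sequences is shown because the sites changed in nearly every read lay mostly in such copies. Each line gives 21 bases of the annotated transcript around the site, on the RNA strand, with the site in capitals. The second line of each pair has T at the site and is a stretch that also occurs in the transcript of the gene named. Sequences are from the GENCODE M21 transcripts (GRCm38), and positions are in mm10/GRCm38.
Gm8566, chr6:67205837: agaaacatggCggcccggcgg
Gm8566 with T, as in Sod1: agaaacatggTggcccggcgg
Gm15772, chr5:3236718: caaccgtccaCgtgggcatcc
Gm15772 with T, as in Rpl26: caaccgtccaTgtgggcatcc
Rps3a2, chr14:88123275: aggtgcagacCaatgacttga
Rps3a2 with T, as in Rps3a1: aggtgcagacTaatgacttga
Psma5-ps, chr10:85313895: caatgacagtCgagagtgtga
Psma5-ps with T, as in Psma5: caatgacagtTgagagtgtga
Vcp-rs, chrX:104346093: atccatcggcCatggaggtag
Vcp-rs with T, as in Vcp: atccatcggcTatggaggtag
Gm11478, chr11:86630671: tccctgctgcCctcaaggttg
Gm11478 with T, as in Rpl13a: tccctgctgcTctcaaggttg

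The second set shows sites that recurred across libraries and for which no other annotated transcript held the window with T. The first 2 lie in the 5′ UTR of Ssr2. The next 3 lie in 3′ UTRs, each directly after a run of T. The last 3 are a site on chromosome Y and 2 sites of protein-coding genes at intermediate share.
Ssr2, chr3:88576422: tcccaactttCcccagtctgt
Ssr2, chr3:88576591: aatatgtttcCctaaagcaac
Ywhae, chr11:75764839: ttttttttttCtcccctcccc
Dnajb11, chr16:22872112: ttttttttttCttgactcctg
Dlg4, chr11:70045320: ttttttttttCtgggatttta
Gm47283, chrY:90785911: tcacccgccgCggtcaagatg
Cd276, chr9:58524848: caccctcagcCcacactatcc
Cox6a1, chr5:115345872: tcatgtgaacCcacttccgac

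Reads over all listed sites ranged from 2145471 in the second untreated library of the fixed embryo to 64512152 in the first IgG library of E16.5 brain. The number of reads limits the precision of each share, and intervals below cover counting error only. In most libraries a value of 1 changed read was rarer than 2 (for example 1963 against 13019 sites in the first untreated library of the fixed embryo), and how single changed reads were treated upstream is not given in the sources used here. The 2 embryo tables also differ in tissue content. Libraries of the fixed embryo held transcripts of heart (Myl7, mean 2431 TPM, a length-corrected share of transcripts) and trunk (Hoxb9, 533 TPM). Those labelled fresh-frozen embryo held 4.63 and 0.184 TPM of these, but 341 TPM of Gria2 and 265 TPM of Syt1, which are neuronal genes at 1.005 and 3.17 TPM in the fixed embryo. Preparation and tissue content cannot be told apart in any difference between these tables.

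The untreated shares fell into a large low group and a small group near complete change. In the fixed embryo 2218 sites lay from 5 to under 10%, 240 from 10 to under 25%, 10 from 25 to under 40%, 1 from 40 to under 60%, 1 from 60 to under 90%, and 55 at 90% or more. For the fresh-frozen embryo the same bands held 3327, 234, 10, 4, 8 and 35 sites. Sites at 90% or more are called fully changed below, those from 10 to under 90% partly changed (252 and 256), and the rest low. These bands were chosen after the values were seen.

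**Figure D1:**
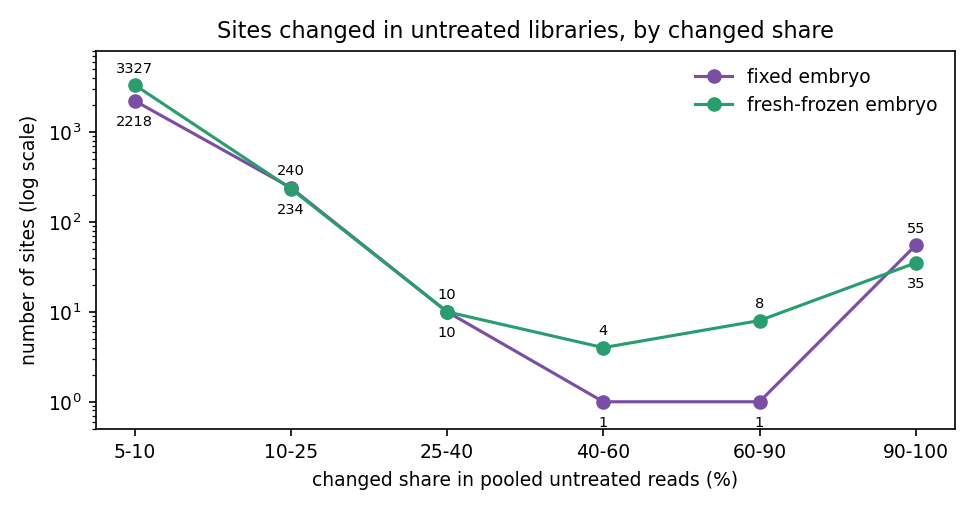
Number of sites (vertical axis, log scale) in each band of the changed share in pooled untreated reads (horizontal axis, %), for the fixed (purple) and fresh-frozen (green) embryo. Counts drop from 2218 and 3327 at 5 to under 10% to 10 or fewer in each band from 25 to under 90%, and reach 55 and 35 at 90% or more.

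Fully changed sites had nearly all reads changed in the antibody libraries too. Gm8566, a processed pseudogene with an exon site on chromosome 6, had 169 of 169 and 94 of 94 changed reads in the untreated fixed libraries, and 285 of 285 and 196 of 196 with IgG. With anti-G3BP1 the counts were 228 of 228 and 162 of 162. All reads were also changed in the 6 fresh-frozen libraries, which covered this site 22 to 62 times each. The 8 brain libraries had 32 to 172 reads there and 98.3 to 100% changed, so the site was near complete in all 20 libraries.

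Over all fully changed sites of the fixed embryo the changed share of reads was 99.5 ± 0.0623% (SD, n = 2 libraries) in untreated sections, 99.4 ± 0.0597% with IgG and 99.4 ± 0.0524% with anti-G3BP1. The same shares in the fresh-frozen embryo were 99.3 ± 0.510%, 98.0 ± 0.00854% and 97.8 ± 0.491%. Every one of the 55 fixed-embryo sites carried changed reads in all 4 antibody libraries. Of the 35 fresh-frozen sites, 32 did so in all 4 and 3 in 3, where the median total over the antibody libraries was 14 reads. The brain libraries, which took no part in the choice, listed 62 of these sites at E12.5 with 99.6 to 99.7% of reads changed, and 65 at E16.5 with 98.8 to 99.5%.

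**Figure D2:**
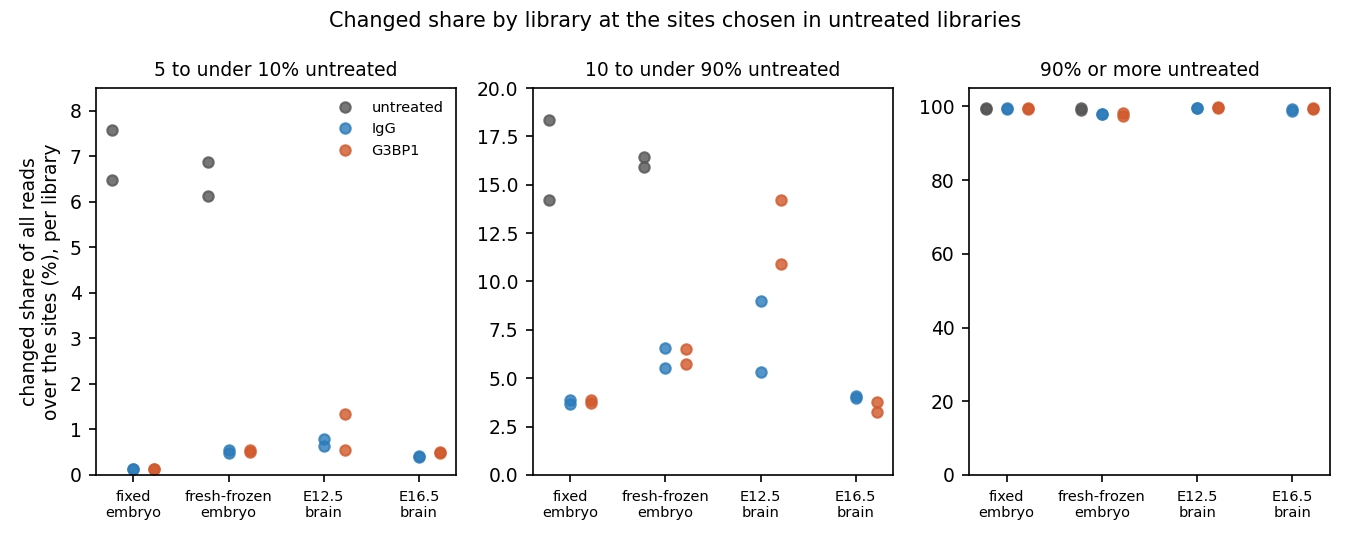
Changed share of all reads over the sites (vertical axis, %) in each library, for low (left), partly changed (middle) and fully changed (right) sites, with the deposited table on the horizontal axis. Points are single libraries; vertical scales differ between panels. Low sites stand at 6.13 to 7.58% in untreated libraries and at 1.35% or less in antibody libraries, and fully changed sites stay at 97.5% or more in all.

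The fully changed sites lay mostly in pseudogenes. Annotated pseudogenes held 49 of 55 (89.1%) in the fixed and 33 of 35 (94.3%) in the fresh-frozen embryo. They held 2.38 and 4.30% of partly changed sites, 1.17 and 0.932% of low sites, and 1.29 and 0.374% of the other C sites with the same depth. The 21-base window with T in place of C was found in a transcript of another gene for 42 of 55 (76.4%) and 30 of 35 (85.7%) fully changed sites. For partly changed sites this was 1.98 and 6.27%, for low sites 0.814 and 1.75%, and for other C sites 1.01 and 1.26%. A window found elsewhere is a description of the letters, and where reads were placed was not tested.

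**Figure D3:**
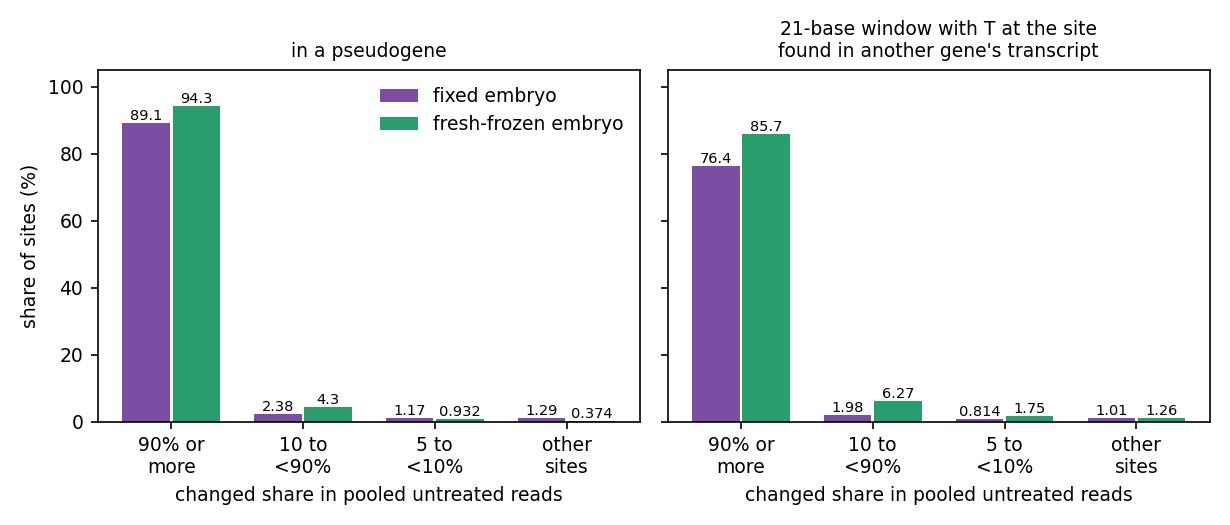
Share of sites (vertical axis, %) in annotated pseudogenes (left) and with the 21-base T window in a transcript of another gene (right), by changed share in pooled untreated reads, for the fixed (purple) and fresh-frozen (green) embryo. Bars reach 89.1 and 94.3% on the left and 76.4 and 85.7% on the right for sites at 90% or more, and stay at 6.27% or less elsewhere.

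Of the genes named with a T window above, Sod1 encodes a cytosolic superoxide dismutase, Rpl26, Rpl13a and Rps3a1 encode ribosomal proteins, Psma5 a proteasome subunit and Vcp an ATPase that extracts proteins for degradation. In Gm15772, the copy with the Rpl26 window, 377 of 377 and 102 of 102 untreated reads were changed in the fixed embryo. The 4 antibody libraries had 314 to 473 reads there, all changed. Rps3a2 held 3 sites in both embryo tables. At chr14:88123275 all 107 and 32 untreated fixed reads and all 36 and 33 untreated fresh-frozen reads were changed, and so were all reads of the 8 antibody libraries, 13 to 118 each. Psma5-ps was changed in 30 of 30 and 11 of 11 untreated fixed reads and in 18 of 18 and 25 of 25 untreated fresh-frozen reads. None of its antibody reads in either embryo table was unchanged.

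The expression tables assigned transcripts to the copies as well. Psma5-ps averaged 25.4 TPM beside 162 TPM for Psma5 in the fixed embryo. Rps3a2 averaged 196 TPM (SD 58.5, n = 6 libraries) and Rps3a1 821 TPM (SD 85.5) in the fixed embryo. Vcp-rs averaged 127 TPM (SD 8.22) beside 156 TPM (SD 8.12) for Vcp. Reads from near-identical copies can be split between them in such tables, so these levels are uncertain.

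Some fully changed sites lay outside pseudogenes, 6 in the fixed and 2 in the fresh-frozen embryo. Mir682, annotated as a microRNA at chr13:75645093, had 428 of 428 and 133 of 135 untreated reads changed, and its T window occurs in Rpl37a, another ribosomal protein gene. Rbm8a2 had 17 of 18 and 4 of 4, and its T window occurs in Rbm8a, a core protein of the exon junction complex. Gm2245, annotated as antisense, had 19 of 19 and 3 of 3, with no other transcript holding its T window.

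Ssr2 encodes a subunit of the translocon-associated protein complex of the endoplasmic reticulum. Its 5′ UTR held 2 fully changed sites in both embryo tables. At chr3:88576591 the untreated counts were 157 of 157 and 38 of 38 in the fixed embryo and 20 of 20 and 29 of 29 in the fresh-frozen embryo. With IgG they were 199 of 199, 129 of 130, 15 of 15 and 15 of 17. The brain libraries had 22 to 149 reads there and 98.0 to 100% changed. The lowest of all 20 libraries was the second fresh-frozen IgG library, at 88.2%. The other site, chr3:88576422, had 46 of 46 and 12 of 12 untreated fixed reads changed and 12 of 12 and 16 of 16 in the fresh-frozen embryo. The T window of neither site was found in another annotated transcript.

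The sites shared by the embryo tables were nearly all of this kind. Of the 26 in both, 24 were fully changed in 1 or both tables, 20 in both tables, and 22 of the 24 lay in pseudogenes. All 24 were listed in both brain tables as well. Unchanged reads at these 24 sites were 0 to 11 per fixed-embryo library, of 572 to 2316 reads. The fresh-frozen libraries had 5 to 23 of 282 to 540 reads, which leaves 95.4 to 99.0% changed. In the brain libraries 99.1 to 99.6% were changed. The lowest fixed-embryo library (99.4%) lay above the highest fresh-frozen library (99.0%) over these 24 sites, which include 4 that untreated reads placed at 90% or more in 1 table only. Over the 20 sites fully changed in both tables the fresh-frozen libraries had 96.8 to 99.6% and the fixed ones 99.4 to 100%, and these ranges overlapped. The overlap came from the untreated libraries, which the choice of sites used (98.5 and 99.6% fresh-frozen, 99.4 and 100% fixed). The antibody libraries did not overlap, at 96.8 to 98.1% fresh-frozen and 99.6 to 99.7% fixed.

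**Figure D4:**
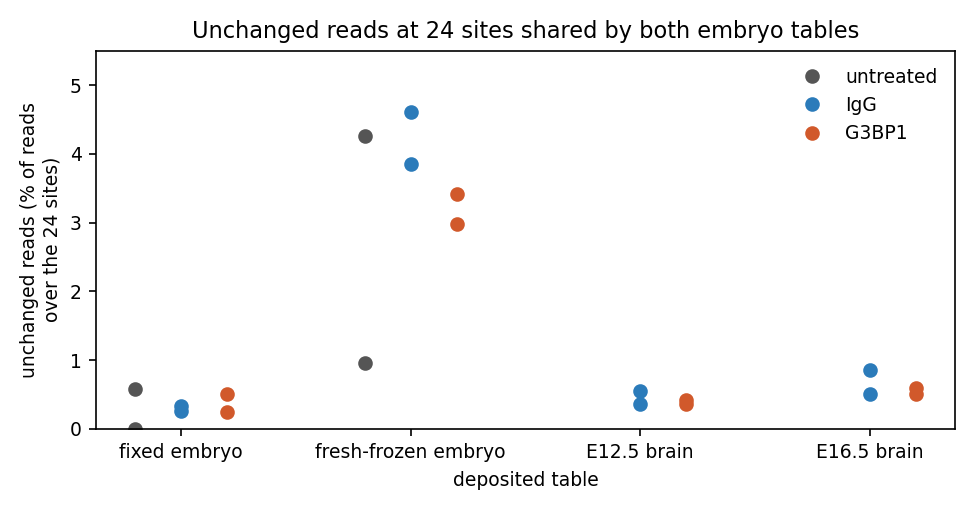
Unchanged reads (vertical axis, % of reads over the 24 shared sites) in each library, by deposited table (horizontal axis) and treatment (colour). Points are single libraries. Fresh-frozen libraries, with 95.4 to 99.0% of reads changed, lie above all others, with 99.1% or more changed. Over the 20 sites fully changed in both tables, not plotted alone, the fixed and fresh-frozen ranges overlap in untreated but not in antibody libraries.

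Vcp-rs and Rps19-ps6 are shared pseudogene sites whose unchanged reads lay mainly in the fresh-frozen table. Vcp-rs at chrX:104346093 had 105 of 105, 32 of 32, 106 of 106, 76 of 76, 63 of 65 and 80 of 80 changed reads in the fixed embryo (untreated, IgG, anti-G3BP1). The fresh-frozen libraries, in the same order, had 28 of 31, 22 of 24, 13 of 15, 13 of 16, 16 of 16 and 27 of 32. Rps19-ps6, a copy of a ribosomal protein transcript, had 98.2 to 100% in the fixed embryo and 69.2 to 88.9% in the fresh-frozen embryo, at 8 to 15 reads per library there. The 2 tables did not overlap at this site.

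Few partly changed sites recurred in all antibody libraries, and many had no changed read in any of them. In the fixed embryo 233 of 252 had no changed read in any of the 4 antibody libraries and 4 had changed reads in all 4. For the fresh-frozen embryo these counts were 193 and 26 of 256. Their changed share over all reads was 16.3 ± 2.95% in untreated, 3.77 ± 0.133% in IgG and 3.81 ± 0.108% in anti-G3BP1 libraries of the fixed embryo, and 16.2 ± 0.395%, 6.05 ± 0.736% and 6.14 ± 0.543% in the fresh-frozen embryo (SD, n = 2 each).

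Gm47283, annotated as a lincRNA on chromosome Y, was the best covered recurring site of the fixed embryo. It had 107 of 143 and 36 of 44 changed reads in untreated, 254 of 349 and 152 of 203 in IgG, and 135 of 184 and 101 of 128 in anti-G3BP1 libraries, which is 72.8 to 81.8%. The 6 fresh-frozen libraries, with 5 to 29 reads each, had 0 to 27.3%, the E12.5 libraries 5.26 to 37.0% and the E16.5 libraries 20.5 to 36.6%. The fixed embryo thus stood above all other tables at this site without overlap. Another annotated gene holds the same window with C, so reads of the copies could not be separated here.

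Cd276, an immune checkpoint ligand, stood near an even split in its 3′ UTR in the fixed embryo. Changed reads were 14 of 35 and 12 of 19 in untreated, 33 of 89 and 25 of 52 in IgG, and 26 of 48 and 13 of 39 in anti-G3BP1 libraries. The groups overlapped, with pooled shares of 48.1% (95% Wilson interval 35.4 to 61.1), 41.1% (33.4 to 49.4) and 44.8% (34.8 to 55.3). The 3′ UTR of Pou2f1, a transcription factor gene, was changed in 5 of 33 and 2 of 16 untreated reads and in 4.23 to 16.7% of reads with antibody, and again in 5.31 to 10.1% in E16.5 brain.

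Mroh2a and Hjurp, neighbours on chromosome 1, were changed in every table. Hjurp deposits the centromeric histone variant. Mroh2a at chr1:88259589 had 4 of 9 and 0 of 2 untreated reads changed in the fixed and 9 of 31 and 4 of 17 in the fresh-frozen embryo. In E16.5 brain it had 11 of 33, 7 of 32, 3 of 15 and 8 of 31 changed reads. Hjurp at chr1:88265185 had 7 of 56 and 6 of 31 in the untreated fresh-frozen libraries and 8.51 to 20.9% in E16.5 brain.

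The fresh-frozen embryo had more partly changed sites with changed reads in all 4 antibody libraries, 26 against 4 in the fixed embryo. Of all its partly changed sites 34.8% lay in 3′ UTRs, against 67.5% of other C sites. Ranbp9, a scaffold protein gene, had 25 of 66 and 16 of 60 untreated reads changed, 10 of 43 and 5 of 24 with IgG and 11 of 46 and 14 of 54 with anti-G3BP1. Both untreated values (37.9 and 26.7%) lay above the 4 antibody values (20.8 to 25.9%), which the choice of sites by untreated share favoured. Ftl1, the ferritin light chain, had 13 of 26 and 23 of 39 untreated reads changed in its 5′ UTR, and 35.7 to 71.4% in antibody libraries of 7 to 16 reads, with overlap. Dlgap1, a scaffold of the postsynaptic density, had 4 of 19 and 12 of 20, and 42.9 to 66.7% with antibody.

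Ywhae was the best covered of the sites after a run of T. It encodes the epsilon form of 14-3-3 proteins. It had 62 of 249 and 22 of 167 changed reads untreated, 26 of 105 and 16 of 106 with IgG, and 19 of 102 and 31 of 153 with anti-G3BP1. The pooled shares were 20.2, 19.9 and 19.6%, and the groups overlapped fully. In E16.5 brain the same site had 5 of 556, 1 of 446, 6 of 426 and 4 of 519, at most 1.41%.

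Dlg4, which encodes the postsynaptic scaffold PSD-95, had 8 of 19 and 3 of 16 untreated reads changed. A C directly after 6 or more T (TTTTTTC, RNA strand) made up 5 of 255 partly changed fresh-frozen sites (1.96%) and 1 of 252 (0.397%) in the fixed embryo. Among other C sites with the same depth it was 0.168% and 0.0986%, and among all C of the annotated transcripts 0.0697%. With 5 sites this is a description of letters only.

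Other well covered fresh-frozen sites had a higher share in untreated than in antibody libraries. Slc8a1, a sodium-calcium exchanger, had 12 of 95 and 15 of 58 untreated, 2 of 63 and 4 of 75 with IgG and 5 of 91 and 4 of 91 with anti-G3BP1. Tanc2 and Btf3 had untreated shares of 10.4 and 12.7% and of 24.4 and 11.7%, and antibody shares of 1.15 to 6.87% and of 0 to 6.06%. The mitochondrial ribosomal RNA mt-Rnr2 at chrM:1207 had 21 of 264 and 21 of 367 untreated, and 1.08 to 3.68% of 700 to 1499 reads with antibody. The untreated share chose these sites, so its excess over the antibody libraries is a description and not a result.

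Caprin1, whose protein binds G3BP1 in stress granules, had a site in its 3′ UTR at chr2:103764896. It was changed in 12 of 34 and 6 of 16 untreated fresh-frozen reads, 0 of 13 and 2 of 15 with IgG, and 3 of 17 and 4 of 27 with anti-G3BP1. The antibody groups stood at 0 and 13.3% against 17.6 and 14.8%, at depths of 13 to 27 reads. Timp2, an inhibitor of matrix metalloproteinases, had 14 of 110 and 10 of 93 untreated, and 3.85 to 16.7% with antibody, with overlap.

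**Figure D5:**
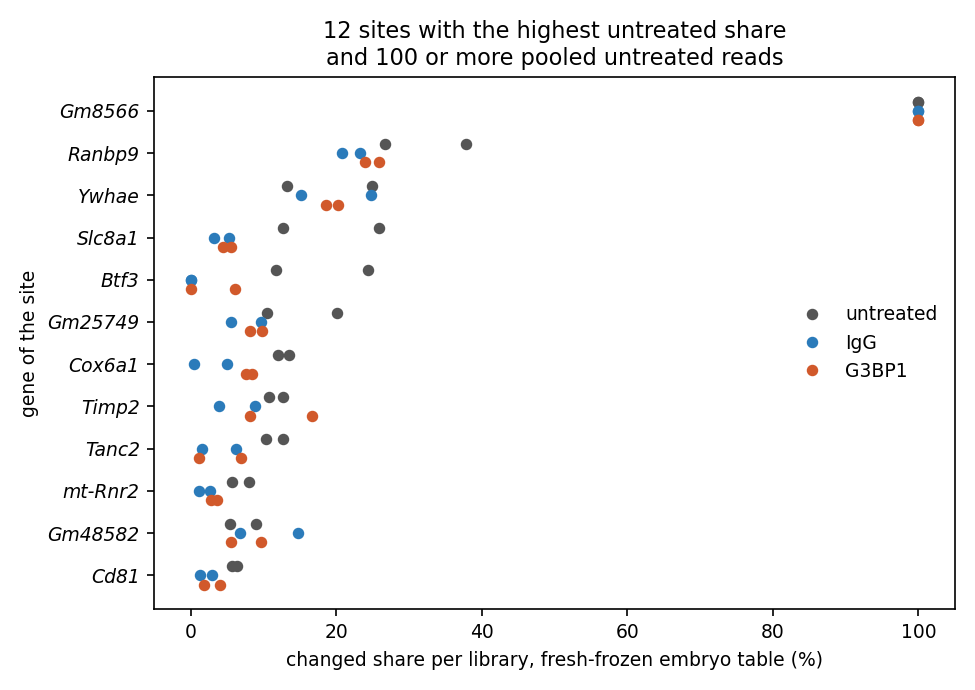
Changed share (horizontal axis, %) in each library of the fresh-frozen table at the 12 sites with the highest untreated share among those with 100 or more pooled untreated reads and 5% or more in both untreated libraries. Points are single libraries, grey untreated, blue IgG, orange anti-G3BP1. Gm8566 lies at 100% throughout, Ywhae overlaps between treatments, and Slc8a1, Btf3 and mt-Rnr2 have their highest points in untreated libraries.

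The low sites rested on very few reads. Over all members the median pooled untreated depth was 30 reads in the fixed and 31 in the fresh-frozen embryo, against 99 and 96 at other C sites. Exactly 2 changed reads carried 2142 of 2525 (84.8%) and 3203 of 3618 (88.5%) of the sites. Only 97 and 242 sites had changed reads in both untreated libraries. Among the fully changed sites this was 54 of 55 and 35 of 35.

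The untreated replicates shared few of these sites. Applied to each fixed-embryo library alone, an added check, the rule took 2180 and 992 sites, with 21 in both (0.963% and 2.12%). Only 97 of the 2180 sites had 20 or more reads in the second library, so depth limits the 0.963%. Of these 97, 21 (21.6%) reached 5% there, and 6 of 82 among sites under 90% did. Of the 991 sites of the second library that had 20 or more reads in the first, 922 had no changed read there. For the fresh-frozen embryo it took 3036 and 2256 sites, with 50 in both (1.65% and 2.22%). Of 1704 sites of the first library with depth in the second, 1599 had no changed read there.

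Most members carried no changed read in the antibody libraries. These libraries took no part in the choice of sites, so the choice favoured a fall in them, and an effect of treatment cannot be told from it. A similar loss was seen between untreated libraries. Of 991 sites chosen from the second fixed-embryo library alone, with 20 or more reads in the first, 922 had no changed read in the first. None of the 4 antibody libraries had a changed read at 2301 sites (91.1%) of the fixed and 3274 (90.5%) of the fresh-frozen embryo. Their median total over those libraries was 102 and 32 reads, and a count of 0 at that depth allows a share of up to 2.94% and 9.38%. These limits assume that every changed read was counted. Single changed reads were rarer than pairs in these libraries, so the true limits may be higher. Among fixed-embryo sites with 20 or more pooled reads in the antibody group concerned, 69 of 2498 reached 5% with IgG, and 73 of 2289 with anti-G3BP1. The fresh-frozen counts were 72 of 1328 and 88 of 1806.

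At low sites the changed share of reads was 7.02 ± 0.780% untreated, 0.132 ± 0.00328% with IgG and 0.136 ± 0.00146% with anti-G3BP1 in the fixed embryo. Fresh-frozen values were 6.50 ± 0.519%, 0.522 ± 0.0424% and 0.529 ± 0.0221%. At other C sites the antibody libraries had 0.361 to 0.471% in the fixed and 0.626 to 0.9998% in the fresh-frozen embryo. How the tables' own selection of sites bears on either level was not tested. Of the low fixed-embryo sites 137 were listed in the E12.5 table and 105 of them had no changed read there. At E16.5 these counts were 140 and 58.

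Near the threshold the sites looked alike on both sides. Just inside it in the fixed embryo, Myo1h had 6 of 88 and 0 of 31 changed reads and Ubl7 had 0 of 121 and 11 of 67. Just outside, Mapre1 had 7 of 121 and 0 of 35. Among fresh-frozen sites Nbr1 had 8 of 88 and 1 of 89 inside, and Rad21 had 4 of 75 and 4 of 91 outside.

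Sites were spread over many genes. The fixed-embryo members lay in 2146 genes, 1826 of them with 1 site, and the fresh-frozen members in 2888 genes, 2320 with 1 site. The most in 1 gene was 5, in the long non-coding RNA Tug1 in the fixed embryo, and in Bsn, Kcnq1ot1, Rian and Gm12183 in the fresh-frozen embryo. The 5 sites of the pseudogene Gm12183 were changed in 100% of reads, whereas those of the other 4 genes stood at 5 to 10%.

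Genes known to be edited by Apobec1 contributed 4 sites in each embryo table. They were 3 in App and 1 in Selenof in the fixed embryo, and 1 in App, 1 in B2m and 2 in Atf2 in the fresh-frozen embryo. Each rested on 2 changed reads in 1 untreated library. In B2m, whose site lies in the 3′ UTR, these were 2 of 28 reads, and the antibody libraries had 0 of 24, 32, 13 and 47. None of the 8 had a changed read in any antibody library of its table. Other C sites with depth in these genes numbered 114 and 143, so the list made up 0.158 and 0.111% of members and 0.200 and 0.196% of other sites. Apobec1 itself averaged 1.19 TPM in the fixed and 2.03 TPM in the fresh-frozen embryo (SD 0.706 and 1.33, n = 6 libraries each), and its cofactor A1cf 0.306 and 0.202 TPM.

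The other gene groups were counted against other C sites of the same tables. Those sites were covered more deeply (median 99 and 96 pooled untreated reads, against 30 and 31 for members). No gene list was compared at like depth, so a share above or below that of other sites may reflect depth. Symbols of pseudogenes and predicted genes held 175 (6.93%) and 304 (8.40%) members against 4.08 and 4.32% of other sites, and 50 and 33 of them were fully changed. Cytosolic ribosomal protein genes held 9 and 8 members, none of them fully changed, at 0.356 and 0.221% of members against 0.594 and 0.228% of other sites. Zinc finger genes, a family of DNA-binding proteins with many similar members, held 69 and 114 members (2.73 and 3.15%) against 1.66 and 2.22%.

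Smaller groups held few sites, and their shares of members stood above or below their shares of other C sites, again without a comparison at like depth. Mitochondrially encoded genes had 4 and 1 members, which is 0.158 and 0.0276% of members against 0.0228 and 0.0219% of other sites. Major histocompatibility genes, which present peptides to T cells, had 3 and 1, which is 0.119 and 0.0276% against 0.0158 and 0.0165%. Below their share of other sites were genes of the neuronal cytoskeleton with 6 and 2 members, at 0.238 and 0.0553% against 0.362 and 0.631%. Nuclear long non-coding RNAs had 4 and 13, at 0.158 and 0.359% against 0.309 and 0.531%. Histones had 3 and 2, at 0.119 and 0.0553% against 0.260 and 0.110%, and housekeeping genes of elongation, glycolysis and protein folding 3 and 6, at 0.119 and 0.166% against 0.503 and 0.258%. Actins and tubulins had 1 and 3, at 0.0396 and 0.0829% against 0.253 and 0.137%, and globins none of 19 and 20 sites with depth. Among the tubulins, Tuba1c at chr15:99034534 was changed in 11 of 13 and 10 of 12 untreated fresh-frozen reads, and its T window occurs in Tuba1a, which averaged 4756 TPM beside 19.3 TPM for Tuba1c.

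Members differed from other C sites, which were covered more deeply, in position and neighbouring bases. Coding sequence held 40.4% of fixed and 46.5% of fresh-frozen members, against 30.8 and 26.7% of other sites, and 3′ UTRs held 50.5 and 41.7% against 64.0 and 67.5%. Of other C sites with 20 to 40 pooled untreated reads, 3645 of 9355 fixed and 3043 of 10708 fresh-frozen ones were coding. In 3′ UTRs lay 5152 and 6443 of them. At such depth the coding share of fixed-embryo members was close to that of other sites. Neighbouring bases were not compared at like depth. The base before the C was G in 34.8 and 45.8% of members, against 29.0 and 30.8% of other sites and 24.4% of all C in the annotated transcripts. It was A, a base that APOBEC1 favours there, in 21.4 and 17.6% against 24.1 and 37.3%. How the selection of listed sites bears on these shares was not tested.

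The fully changed sites had their own pattern. A G followed the C at 26 of 55 (47.3%) and 15 of 35 (42.9%), against 11.1 and 8.78% of other C sites and 9.37% of all transcript C. Non-coding exons held 51 of 55 and 32 of 35 of them. At 15 of the 55 the table lists more than 1 alternative base, and which of these was counted is not given in the sources used here.

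Depth in antibody libraries differed between the tables. Of fixed-embryo members 98.9% had 20 or more IgG reads. Of fresh-frozen members 36.7% did, against 87.7% of other C sites and 62.6% of other C sites with 20 to 40 pooled untreated reads. Members there had median depths of 31 reads untreated, 14 with IgG and 19 with anti-G3BP1. Within coding sequence 26.9% of members reached 20 IgG reads and within 3′ UTRs 45.5%. What lowered depth at these sites was not tested, and it limits what the fresh-frozen antibody libraries can show.

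Anti-G3BP1 was compared with IgG per site, in libraries the choice of sites had not used, with a quasi-binomial model fitted over all listed sites of any base. A site needed 20 or more reads in each library and 10 or more changed reads over the comparison. Among fixed-embryo sites 39 members of 250 sites passed and none was called at an adjusted p under 0.05, where 0% of all tested sites were called. None had an unadjusted p under 0.05, and edgeR's quasi-likelihood test called 0 with 1 under 0.05. The median log2 odds ratio of anti-G3BP1 over IgG was 0.01 for members and 0.18 for all tested sites. Most members tested here were changed in nearly every read, which leaves almost no room for a rise. Gm8566 at chr6:67205837 had no unchanged read in either group. Its value of -0.30 (standard error 2.89) came only from the reads that the model adds. The lack of calls and the member median therefore say little about such sites.

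Among fresh-frozen sites 26 members of 2571 sites were tested and 0 were called, where 7.51% of all sites were called, 192 of 193 of them higher with anti-G3BP1. Among tested C sites that were not members, 3 of 235 were called (1.28%). The median log2 odds ratio was 0.25 for members, 0.53 for the other C sites and 1.66 for all. One member had an unadjusted p under 0.05, and edgeR called none with 0 under 0.05.

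That member was Cox6a1, a subunit of cytochrome c oxidase, at a coding site. It had 1 of 195 and 10 of 201 changed reads with IgG and 17 of 222 and 25 of 297 with anti-G3BP1. Both anti-G3BP1 values (7.66 and 8.42%) lay above both IgG values (0.513 and 4.98%) and below the untreated 13.5 and 12.1%. The untreated share chose the site, so its excess is a description only. The log2 odds ratio was 1.58 (SE 0.68) at an adjusted p of 0.0959 in the quasi-binomial fit. It was 3.79 at an adjusted p of 0.0223 without the second IgG library and 0.73 at 0.469 without the first, in the same model, so 1 IgG library decides the value. In E16.5 brain the site had 0 of 609, 501, 330 and 589 reads changed.

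In E12.5 brain 10 members of 394 sites were tested and 0 called, where 0% of all sites were called. The quasi-binomial model gave 0 unadjusted p under 0.05 and edgeR 0 calls with 0 under 0.05. In E16.5 brain 47 members of 4787 were tested and 0 called, where 4.3% of all sites were called. Among tested C sites that were not members, 1 of 602 was called (0.166%). Here 2 members had an unadjusted p under 0.05, and edgeR called 0 members with 1 under 0.05. edgeR also called 0 of all 4787 sites, so the share of 4.3% comes from the quasi-binomial model alone. Member medians at E12.5 and E16.5 were 1.32 and 0.13 on the log2 scale. The other C sites had 3.58 and 0.78, and all tested sites 1.67 and 1.05. At each stage most tested members were changed in nearly every read, with few unchanged reads to compare. Standard errors of the E12.5 members ran from 1.41 to 2.90, so their median is poorly determined.

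The pair at E16.5 were pseudogene sites with few unchanged reads. Gm11478 had 81 of 81 and 81 of 81 changed with IgG and 76 of 76 and 93 of 100 with anti-G3BP1, so 1 library held all 7 unchanged reads. Without the first anti-G3BP1 library Gm11478 and Gm47283 passed the threshold, both lower with anti-G3BP1 (log2 odds ratios of -4.66 and -1.07). At Rps3a2, chr14:88123141, 16 of 20 and 30 of 37 reads were changed with IgG and 26 of 29 and 33 of 34 with anti-G3BP1.

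The fresh-frozen and fixed embryos were compared over their antibody libraries at sites listed in both tables. Only 4 members of 326 sites had the depth, and 2 were called, where 56.4% of all sites were called, 179 of 184 higher in the fresh-frozen embryo. Among tested C sites that were not members, 11 of 41 were called (26.8%). Gm11478 was lower in the fresh-frozen embryo, with 92.3 to 97.0% in its 4 antibody libraries against 99.3 to 100% in the fixed ones, which did not overlap. The log2 odds ratio was -3.64 (SE 0.757, quasi-binomial adjusted p = 4.36e-05), and the call was lost with edgeR's quasi-likelihood test (adjusted p = 0.0654).

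Dnajb11, a co-chaperone of the endoplasmic reticulum, was higher in the fresh-frozen embryo at its 3′ UTR site after the T run. It had 7 of 51, 4 of 30, 3 of 31 and 3 of 86 changed reads there, against 1 of 201, 0 of 112, 2 of 100 and 0 of 88 in the fixed embryo. All 4 fresh-frozen values (3.49 to 13.7%) lay above the fixed ones (0 to 2.00%), with a log2 odds ratio of 3.63 (SE 1.18, quasi-binomial adjusted p = 0.00197). The site became a member through its untreated fresh-frozen reads alone (3 of 28 and 0 of 5, against 2 of 93 and 0 of 33 in the fixed embryo). It also passed the filter on changed reads through the fresh-frozen libraries, so its direction was favoured by the choice and this call supports nothing further.

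Between the brain stages 12 members of 1770 sites were tested and 0 were called by the quasi-binomial model, where 0.113% of all sites were called. One had an unadjusted p under 0.05, and edgeR called 0 with 1 under 0.05. The member median was -0.52 on the log2 scale (E16.5 over E12.5), beside -0.34 for all tested sites. Most of these members were changed in nearly every read, so few unchanged reads set their values. Few members passed the filters on reads and changed reads in any comparison, so those tested are not a sample of all 6117.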

How the data were processed

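Poly(A) RNA came from TRIzol extracts, and libraries were built with VAHTS Universal V6, as the labels' protocols state. Each of 4 deposited editing tables gives, per the file headers, 2 counts per site and library: reads over the site and reads with the changed base. The deposited expression tables hold TPM made by the authors. The submitters' processing notes name GATK 4.5.0.0, featureCounts 2.0.1 of Subread, Picard 3.1.1, HISAT2 2.2.1, BWA 0.7.17 and mm10/GRCm38. The rule for calling a site is not given in the sources used here.

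Repeated lines were merged to unique positions. Gene, region and 21-base windows came from GENCODE M21 transcripts, and windows were searched on the RNA strand of all other genes' transcripts. The 20 libraries formed 10 groups of 2 by their labels. Each site was fitted with a quasi-binomial model of changed and unchanged reads (0.25 changed and 0.25 unchanged reads added per library, dispersion moderated with squeezeVar of limma 3.58.1 and kept at 1 or more), two-sided, with Benjamini-Hochberg adjustment over all tested sites. Sites with 20 reads in every library and 10 changed reads in all were tested, and calls were made at an adjusted p under 0.05. edgeR 4.0.16 was an alternative, as were other minimums, a replicate block and leaving out libraries. Code ran in Python 3.11.15 and R 4.3.3. The model was also run on simulated data, with 100 sites each shifted by a log2 odds ratio of 1 or 2. It called 22 and 61 of them in the fixed and 0 and 23 in the fresh-frozen embryo. In brain it called 6 and 48 at E12.5 and 2 and 25 at E16.5, so such shifts could be missed. Of unshifted sites it called 5 of 50, 1 of 2371, 0 of 193 and 2 of 4587, in that order. Simulated shares were capped, so nearly complete change was not covered. Wilson intervals are at 95%.

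The sites and the 12 gene lists were chosen with earlier results of these data known. Bands, the window search and the T run were chosen after values were seen. Named sites were the 12 with the highest untreated share per embryo table (100 or more pooled reads, 5% in both untreated libraries), called members, sites in Apobec1 target genes, deeply covered sites, those beside the threshold and up to 4 per list. Sites in both embryo tables, fully changed sites outside pseudogenes, and partly changed sites with changed reads in both untreated and 3 or more antibody libraries were added after values were seen. The text prints a selection, and some sites are not reported here. Ribosomal S6 kinases (Rps6k) were left out of the ribosomal list.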

Additional observations from a re-analysis of the deposited data

How the results depend on the processing

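The number of sites was 6117. It was 574 at 10% in place of 5%, 285 at 50 pooled reads, 232 with 5% in each untreated library, 6042 without repeated lines, and 4601 to 5772 when 1 untreated library was left out.

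Levels over all members depended on the fully changed sites. The changed share of reads, then its median over members, then the share over members under 40% untreated were as follows. Fixed-embryo values were 13.0, 7.14 and 7.60% (untreated), 4.35, 0 and 0.157% (IgG), and 6.59, 0 and 0.171% (anti-G3BP1). Fresh-frozen values were 8.23, 6.67 and 6.98%, then 2.06, 0 and 0.742%, then 1.93, 0 and 0.808%. E12.5 brain had 23.1, 0 and 0.811% (IgG) and 37.8, 0 and 1.11% (anti-G3BP1), and E16.5 brain 8.92, 0 and 0.494%, then 10.1, 0 and 0.606%.

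Members called for anti-G3BP1 against IgG stayed at 0 in the fixed embryo and E12.5 brain under all settings. With 1 library left out, where the lone sample is assumed to vary like the other group, they were 0 to 1 in the fresh-frozen embryo (Cox6a1, 3.79 without the second IgG library) and 0 to 2 in E16.5 brain. For fresh-frozen against fixed, 2 members became 1 with edgeR (Gm11478 at an adjusted p of 0.0654), 7 at 10 reads (Gm6085, Ssr2, Gm6467, Vcp-rs and Gm47283 added, all lower), 1 with anti-G3BP1 libraries only (Dnajb11 then had too few changed reads to be tested), and 2 to 3 with 1 library left out. At 50 reads no member was left to test. Between brain stages it stayed at 0.

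Calls over all sites moved more, in both directions. The 193 fresh-frozen calls rose to 289 with edgeR and to 218 at 50 reads, and fell under the other settings named below. In the fixed embryo 0 became 2 without a minimum of changed reads and 0 to 7 with 1 library left out. Among fresh-frozen sites 193 became 115 at 10 reads, 20 without a minimum, and 0 to 133 with 1 library left out. In E12.5 brain 0 became 2 without a minimum and 0 to 109 with 1 left out. In E16.5 brain 206 became 0 with edgeR, 34 at 10 reads, 678 at 50 reads, 74 without a minimum, and 74 to 312 with 1 left out. For fresh-frozen against fixed 184 became 30 with edgeR, 120 at 50 reads, 42 with IgG only, and 90 to 215 with 1 left out. Between brain stages 2 became 1 with edgeR, 1 at 50 reads, 8 with IgG only, 0 with anti-G3BP1 only, and 0 to 20 with 1 left out. The causes were not tested.

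Replicates share only a number. Same-numbered libraries deviated together by correlations of -0.04, 0.01, -0.01 and -0.02 over tested sites. With a replicate block no member gained or lost a call, and all-site calls were 0 for fresh-frozen sites, 1 in E12.5 brain, 593 in E16.5 brain and 167 for fresh-frozen against fixed.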
